A study of Rattus norvegicus with 10 samples.

Results

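The genes described here encode 49 enzymes and partner proteins that write, remove or read histone marks, among them histone methyltransferases, acetyltransferases, demethylases and deacetylases, sirtuins and corepressors. Members were taken by name, and every probe whose RefSeq transcript belongs to a member gene was used. Of the 49 genes, 34 had a matched probe and 33 had a probe bright enough to test, out of 11561 named genes with a tested probe on the array. Hdac2, a class I deacetylase, had a single matched probe that was well above background on 0 of 10 arrays and was not tested. The other 15 genes had no matched probe and were not analysed here: Ehmt1, Setdb1, Suz12, Setd2, Setd8, Kat2b, Ep300, Kdm5a, Kdm6a, Hdac4, Hdac6, Hdac7, Sirt1, Sirt2 and Cbx1.

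Testes of rat pups on postnatal day 6 were profiled on 10 one-colour Agilent arrays, which measure the amount of each RNA as the brightness of a spot. The pups were a cross of Brown Norway sires with Sprague Dawley dams. Sires had been given saline (5 arrays) or BEP (5 arrays) over 9 weeks, with a recovery of 9 weeks after it. BEP usually stands for bleomycin, etoposide and cisplatin, drugs used together against testicular cancer, but the labels do not spell it out. Sire codes hold the letter C or T, and C is taken as saline and T as BEP, a reading that no label states. The design text puts the number 2 beside the testes without saying whether it counts testes or pups in a sample, and p-values measure the spread between these 10 samples.

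Histones are decorated by writers, which add methyl or acetyl groups, and by erasers, which take them off, and readers and corepressors bind the marks and recruit further enzymes. Methylation of lysine 9 or lysine 27 of histone H3 marks silent chromatin, while acetylation goes with open chromatin. In the newborn testis these enzymes act in germ cells, which rebuild their marks as they leave their fetal resting state, and also in the dividing Sertoli cells around them.

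Signal was of similar quality on all arrays: 70.4% to 74.8% of probes were well above background, 0 spots were saturated, and the 75th percentile was lowest on C1 (1525.3 units) and highest on C3 (2685.8 units). Levels are given as log2 signal minus that percentile, so a level of 0 equals the 75th percentile of its array, and a difference of 1 is a doubling. The arrays lay on 2 slides, with C1, C2, C3, T1 and T2 on slide 1 and C4, C5, T3, T4 and T5 on slide 2. Markers of the testis were present: 11 of 12 Sertoli cell markers and 11 of 12 germ cell markers were well above background on all 10 arrays, while Sox9 and Sall4 had no matched probe.

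The promoters of 4 members on which the results below turn most are shown first. The array reads the RNA of the genes and does not measure these regions. Prmt5 was the single member whose groups did not overlap, Kdm4a had an unadjusted p under 0.05, and Ezh2 and Eed are partners in a complex whose correlation across arrays had the smallest p of the pairs compared, although it did not pass after adjustment. Each is a window of the RefSeq GRCr8 assembly on the minus strand, from 250 bases before to 50 bases after the start of the gene, written in the direction of the gene with each CG in capitals. The windows lie at chr15:31948263-31948562, chr5:137004863-137005162, chr4:77687134-77687433 and chr1:153307451-153307750 in the order printed. No promoter was given for Ezh1.
Prmt5: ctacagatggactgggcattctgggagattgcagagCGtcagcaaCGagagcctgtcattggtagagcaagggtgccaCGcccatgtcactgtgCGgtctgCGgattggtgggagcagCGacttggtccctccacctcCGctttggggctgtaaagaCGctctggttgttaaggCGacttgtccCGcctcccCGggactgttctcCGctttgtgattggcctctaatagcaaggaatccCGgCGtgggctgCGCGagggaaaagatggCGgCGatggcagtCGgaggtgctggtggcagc
Kdm4a: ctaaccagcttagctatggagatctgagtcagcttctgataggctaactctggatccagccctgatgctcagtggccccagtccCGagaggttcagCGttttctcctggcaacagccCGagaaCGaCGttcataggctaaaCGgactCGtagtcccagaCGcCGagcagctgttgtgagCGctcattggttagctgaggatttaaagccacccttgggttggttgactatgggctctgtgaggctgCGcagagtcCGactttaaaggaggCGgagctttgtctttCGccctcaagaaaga
Ezh2: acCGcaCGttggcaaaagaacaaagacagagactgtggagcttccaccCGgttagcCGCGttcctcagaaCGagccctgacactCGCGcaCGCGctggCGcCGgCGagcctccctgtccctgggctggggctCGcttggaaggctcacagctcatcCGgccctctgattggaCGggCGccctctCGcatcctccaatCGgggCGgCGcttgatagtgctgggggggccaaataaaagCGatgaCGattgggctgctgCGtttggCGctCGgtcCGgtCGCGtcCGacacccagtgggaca
Eed: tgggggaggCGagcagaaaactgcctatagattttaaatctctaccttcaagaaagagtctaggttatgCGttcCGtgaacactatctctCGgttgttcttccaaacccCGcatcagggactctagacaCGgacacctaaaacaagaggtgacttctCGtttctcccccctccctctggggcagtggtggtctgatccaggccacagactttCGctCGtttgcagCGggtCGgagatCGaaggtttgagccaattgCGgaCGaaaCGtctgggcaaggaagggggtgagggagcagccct

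The 4 windows hold 19, 14, 30 and 15 CG pairs. Over the 44 members with a promoter in the RefSeq table the count ran from 4 to 52, with a median of 26.5, against 20 over the 9452 genes with a tested probe and 7.0 over all 33469 promoters. Short motifs were searched on both strands. The GC box GGGCGG, a site for SP factors, was found in 32 of the 44 members (72.7%), in 58.6% of genes with a tested probe and in 33.1% of all promoters. The TATA motif TATAAA was found in 0 of 44, in 8.17% of genes with a tested probe and in 14.2% of all promoters. An E2F site, TTTCGCGC or TTTGGCGC, was found in Cbx3, Ezh2 and Kdm1a, or 6.82% of members, against 1.49% and 0.792%. The ETS site CCGGAAGT was in Kat5 alone, which is 2.27% against 7.66% and 3.81%. The NRF1 site GCGCATGCG was in 0 members, against 2.94% and 1.52%. All of these motifs except TATAAA contain a CG, so their counts move with the CG count.

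The comparison the study was built for asks whether testes of pups differ by the treatment of the father. For these genes the levels in the groups lay close together. Of 33 members, 0 passed an adjusted p of 0.05 (limma, Benjamini-Hochberg over 21892 probes, lowest adjusted p = 0.999), as did 0.0% of all probes. At an unadjusted limma p under 0.05 there were 3 members, Prmt5, Ezh1 and Kdm4a, which is 9.09% against 3.97% (869) of all probes. That count was 1 without C1, 1 without T5, 1 within slide 1 and 0 within slide 2. Over all probes the same settings gave 732, 684, 716 and 888. With any other single array left out the count of members was 2 or 3. The fits within a slide used only the arrays of that slide. The 95% interval of the difference lay inside a 1.5-fold change in either direction for 33 of 33 members, against 86.8% of all probes and 90.3% of named genes. In whole testes, fewer cells of a type and less RNA per cell cannot be told apart.

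**Figure D1:**
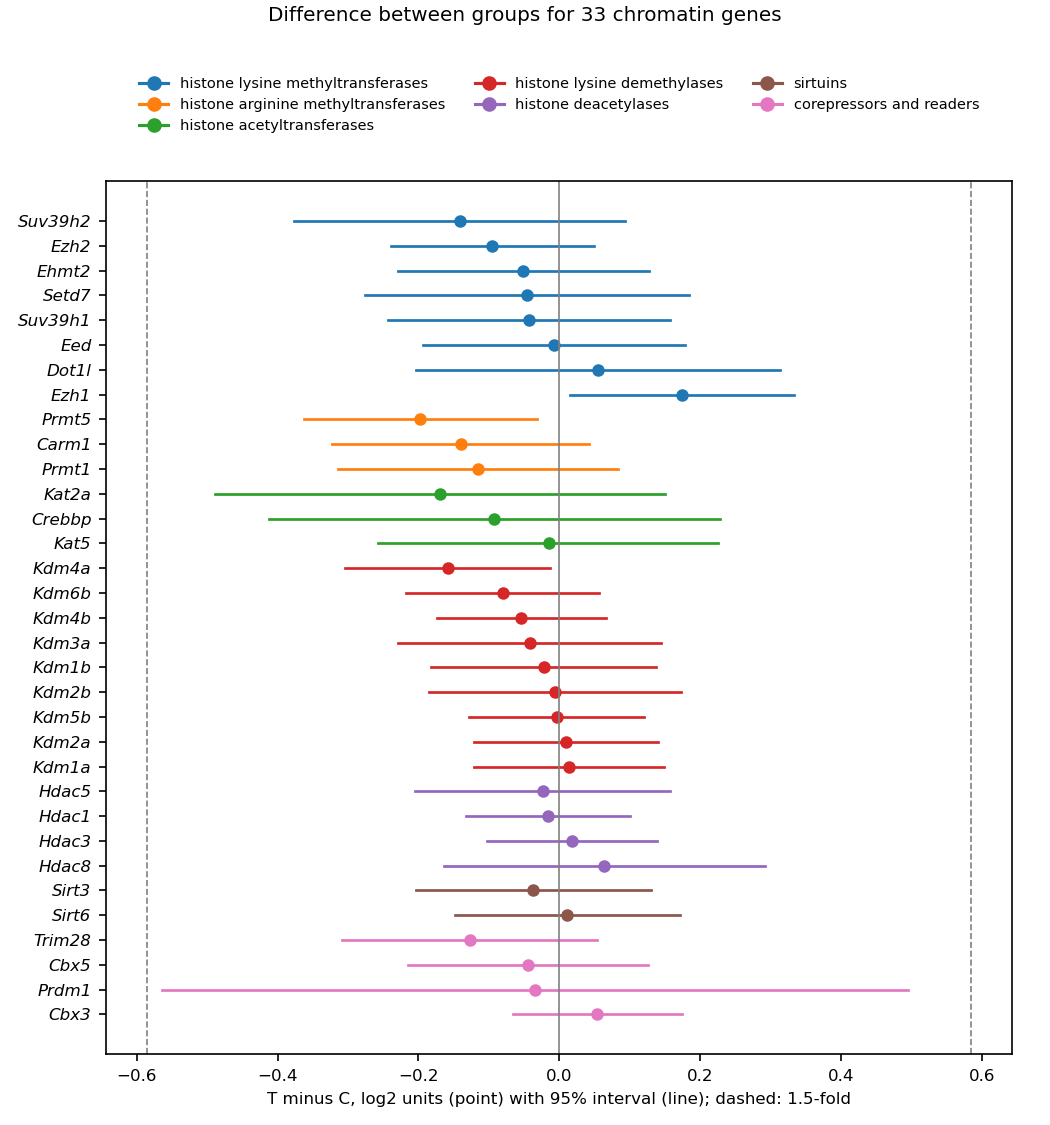
Difference between T and C for 33 members, as T minus C in log2 units (horizontal axis), ordered by role and coloured by role. Points are limma estimates over 5 arrays in each group, lines are 95% intervals, and dashed lines mark a 1.5-fold change. Prmt5, Kdm4a and Ezh1 are the genes whose intervals leave 0 out, and every interval stays between the dashed lines.

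The histone arginine methyltransferases, which put methyl groups on arginines of histones and other proteins, all had lower means in T. Their median difference was -0.14 over 3 of 3 genes. Prmt5, which makes symmetric dimethylarginine, stood at 0.47, 0.26, 0.18, 0.23 and 0.23 on C1 to C5, and at 0.12, 0.15, 0.15, 0.03 and -0.08 on T1 to T5. Every T array was below every C array, the closest values being 0.18 on C3 and 0.15 on T2 and T3. The difference was -0.20 ± 0.075 (SE, 5 arrays a group, limma adjusted p = 0.999, unadjusted p = 0.024). Such an order, T below C with no overlap, was seen in 0.53% of all probes, and the opposite order in 0.192% and in 0 members. C1 was the highest array for Prmt5, and without it the difference was -0.15. Within slide 1 it was -0.17, and within slide 2 it was -0.19.

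Carm1, which methylates histone H3 in partnership with transcriptional coactivators, stood at 0.18, -0.16, -0.30, -0.09 and -0.10 on C1 to C5 and at -0.24, -0.26, -0.17, -0.27 and -0.22 on T1 to T5. The T arrays were close together and lay inside the C range. The difference of -0.14 ± 0.083 (limma adjusted p = 0.999) was -0.072 without C1. A second probe of Carm1 gave -0.092 ± 0.11. Prmt1, which makes asymmetric dimethylarginine, had means of 4.2 ± 0.10 (SD, n = 5) in C and 4.09 ± 0.17 in T. Its difference was 0.049 within slide 1 and -0.22 within slide 2.

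**Figure D2:**
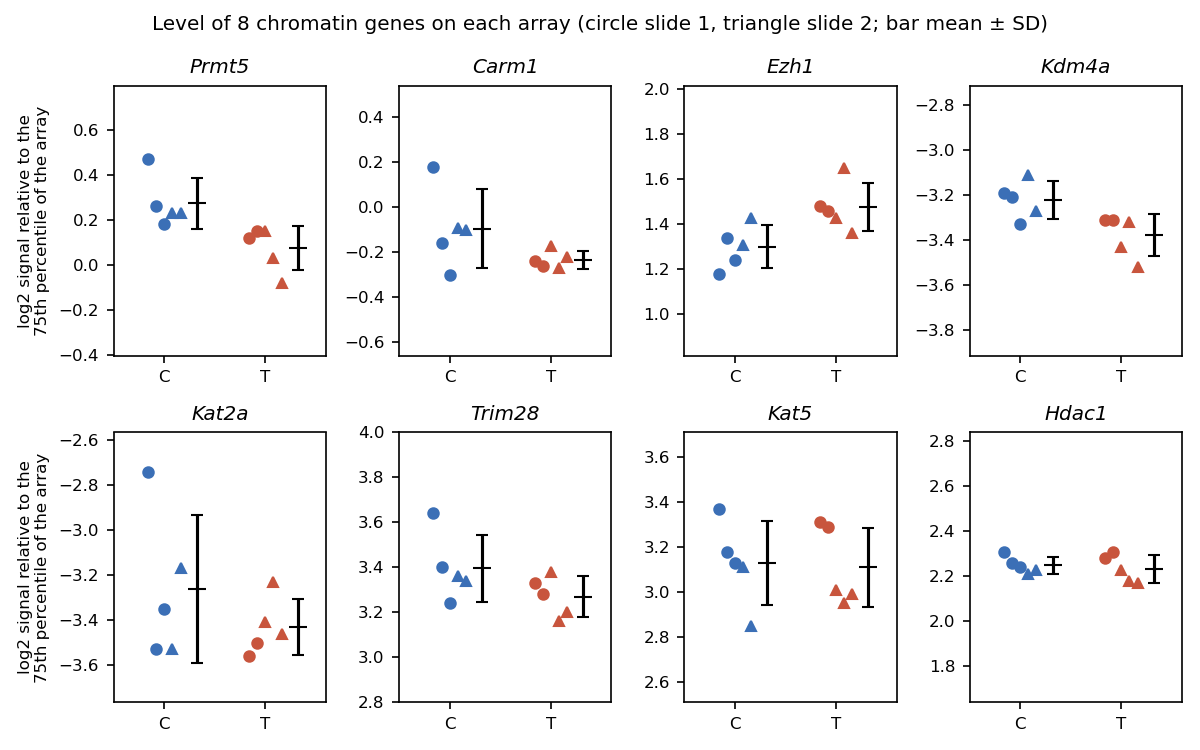
Levels of 8 members on each array (vertical axis, log2 signal relative to the 75th percentile of the array) in C and T, with circles for slide 1, triangles for slide 2 and bars for mean ± SD over 5 arrays. Every panel spans the same number of log2 units. The T points of Prmt5 lie below its C points, C1 is the highest point for Prmt5, Carm1, Kat2a, Trim28 and Kat5, and the circles of Kat5 lie above its triangles.

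Of the 8 tested lysine methyltransferases and their partners, 6 had a lower mean in T, with a median difference of -0.044, and Eed, near 0, turned to 0.004 in the authors' values. Ezh1 and Ezh2 are the alternative catalytic subunits of Polycomb repressive complex 2, which methylates lysine 27 of histone H3, and their means lay on opposite sides. Ezh1 stood at 1.18, 1.34, 1.24, 1.31 and 1.43 on C1 to C5 and at 1.48, 1.46, 1.43, 1.65 and 1.36 on T1 to T5. The groups overlapped, since T5 was below C5, and T4 was the highest array. The difference was 0.17 ± 0.072 (limma adjusted p = 0.999, unadjusted p = 0.0337), 0.22 within slide 1 and 0.11 within slide 2. A second Ezh1 probe was much dimmer, with means of -5.41 in C and -5.45 in T, and gave -0.035 ± 0.13. Its 95% interval, from -0.325 to 0.256, includes the difference of the first probe. The second probe therefore cannot decide the direction.

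Ezh2 stood at -1.27, -1.30, -1.25, -1.41 and -1.17 on C1 to C5 and at -1.48, -1.44, -1.31, -1.35 and -1.29 on T1 to T5. The groups overlapped, with T1 and T2, both on slide 1, below every C array. Its difference was -0.095 ± 0.065 (limma adjusted p = 0.999), with -0.19 within slide 1 and -0.026 within slide 2. Eed, the subunit that binds the methylated lysine, had a mean of -2.60 in each group and a difference of -0.008 ± 0.084. The slides went opposite ways, with -0.196 within slide 1 and 0.155 within slide 2.

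Among the enzymes of lysine 9, Suv39h2 had a difference of -0.14 ± 0.11, Ehmt2 of -0.051 ± 0.081 and Suv39h1 of -0.043 ± 0.090. The Suv39h2 difference was -0.30 within slide 1 and 0.030 within slide 2, and -0.048 with normexp background correction. Its probe was dim, with means of -5.12 in C and -5.26 in T. Setd7, which can add 1 methyl group to lysine 4 of histone H3, differed by -0.045 ± 0.10. Dot1l, the methyltransferase of lysine 79, differed by 0.055 ± 0.12, and its second probe by 0.005 ± 0.099.

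The 3 tested acetyltransferases had lower means in T, with a median difference of -0.092, and their spread between arrays was wide (median percentile 74.8 among all probes). With normexp background correction Kat5 turned to 0.005. Kat2a, the catalytic subunit of the SAGA coactivator complex, stood at -2.74, -3.53, -3.35, -3.53 and -3.17 on C1 to C5 and at -3.56, -3.50, -3.41, -3.23 and -3.46 on T1 to T5. C1 was the highest array by a wide margin, and the other C arrays overlapped with T. The difference of -0.17 ± 0.14 became -0.037 without C1.

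Crebbp, a coactivator that acetylates lysines 18 and 27 of histone H3, stood at -3.38, -3.81, -4.08, -3.87 and -3.98 on C1 to C5 and at -3.89, -3.80, -3.76, -4.32 and -3.82 on T1 to T5. Its highest array was C1 and its lowest T4. The difference of -0.092 ± 0.14 was 0.019 without C1. Kat5, the acetyltransferase of the TIP60 complex that acts in DNA repair, differed by -0.015 ± 0.11, and its second probe by 0.035 ± 0.063.

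The 9 tested lysine demethylases had differences from -0.16 to 0.014, with a median of -0.022 and a lower mean in T for 7, of which Kdm1b and Kdm5b turned positive with normexp (0.002 and 0.017). Kdm4a, a Jumonji enzyme that takes methyl groups off lysines 9 and 36 of histone H3, stood at -3.19, -3.21, -3.33, -3.11 and -3.27 on C1 to C5 and at -3.31, -3.31, -3.43, -3.32 and -3.52 on T1 to T5. The groups overlapped only through C3, which was below T1, T2 and T4. The difference was -0.16 ± 0.066 (limma adjusted p = 0.999, unadjusted p = 0.0355), -0.15 without C1, -0.070 within slide 1 and -0.23 within slide 2.

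Kdm6b, a demethylase of lysine 27, stood at -0.60, -0.78, -0.76, -0.69 and -0.71 on C1 to C5 and at -0.87, -0.84, -0.66, -0.76 and -0.81 on T1 to T5. C1 was highest and T1 lowest, and the groups overlapped. Its difference was -0.080 ± 0.062 (limma adjusted p = 0.999). Kdm4b, Kdm3a, Kdm1b, Kdm2b and Kdm5b had differences from -0.054 to -0.003, and Kdm2a and Kdm1a differences of 0.010 and 0.014. The second probes of Kdm1b (0.059 ± 0.10) and Kdm2a (-0.026 ± 0.090) had the opposite sign to the first.

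The 4 tested deacetylases had differences from -0.023 to 0.064, with a median of 0.001, and 2 means were lower and 2 higher in T. Hdac1, a catalytic subunit of the NuRD, Sin3 and CoREST complexes, stood between 2.21 and 2.31 on the C arrays and between 2.17 and 2.31 on the T arrays. Its difference was -0.016 ± 0.053, with an interval from -0.13 to 0.10, and its 2 other probes gave -0.003 and 0.0.

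Hdac3, the deacetylase of the NCoR and SMRT complexes, stood at -0.51, -0.57, -0.48, -0.51 and -0.41 on C1 to C5 and at -0.48, -0.55, -0.48, -0.48 and -0.40 on T1 to T5. All 10 values lay between -0.57 and -0.40, and the groups overlapped. The difference was 0.018 ± 0.055 and the interval ran from -0.10 to 0.14. Hdac8 stood at -4.36, -4.08, -4.25, -3.78 and -4.16 on C1 to C5 and at -4.23, -4.06, -3.98, -4.05 and -3.99 on T1 to T5. The T arrays lay inside the range of the C arrays, and the difference was 0.064 ± 0.10. Hdac5, a class IIa enzyme, differed by -0.023 ± 0.082.

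Sirtuins are deacetylases that use NAD+. Sirt3, which acts mainly in mitochondria, stood at -0.78, -0.86, -0.81, -0.51 and -0.58 on C1 to C5 and at -0.73, -0.78, -0.71, -0.73 and -0.78 on T1 to T5. The T arrays lay within the C range, with C4 and C5, both on slide 2, above all others, and the difference was -0.037 ± 0.076. Sirt6, a chromatin-bound enzyme that acts on lysine 9, stood at 0.59, 0.47, 0.54, 0.72 and 0.68 on C1 to C5 and at 0.53, 0.49, 0.67, 0.73 and 0.65 on T1 to T5. The groups overlapped throughout, with a difference of 0.011 ± 0.072.

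Of the 4 tested corepressors and readers, Trim28, which zinc finger proteins recruit to silence transposons, stood at 3.64, 3.40, 3.24, 3.36 and 3.34 on C1 to C5 and at 3.33, 3.28, 3.38, 3.16 and 3.20 on T1 to T5. C1 was highest and the rest overlapped. The difference of -0.13 ± 0.082 (limma adjusted p = 0.999) was -0.065 without C1.

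Cbx3 and Cbx5 encode heterochromatin proteins 1 gamma and alpha, which bind methylated lysine 9. Cbx3 stood at 2.27, 2.22, 2.31, 2.39 and 2.34 on C1 to C5 and at 2.30, 2.40, 2.34, 2.36 and 2.41 on T1 to T5, and the difference was 0.054 ± 0.054. The arrays of both groups were mixed, and the 4 other Cbx3 probes gave differences from -0.024 to 0.012. Cbx5 differed by -0.044 ± 0.077.

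Prdm1, a repressor that sets apart the germ line in the embryo, was the single tested member not well above background on all arrays, reaching it on 9 of 10. It stood at -6.63, -5.40, -5.65, -5.63 and -5.92 on C1 to C5 and at -6.51, -5.81, -5.53, -5.77 and -5.79 on T1 to T5. C1 and T1 were lowest, and the groups overlapped. The difference was -0.034 ± 0.24, and the interval from -0.56 to 0.49 was the widest of the members.

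Writers and erasers were set side by side. Of 14 tested writers, 12 had a lower mean in T (median difference -0.071), and of 15 erasers 10 did (median -0.016). Over all 33 members 25 were lower, or 75.8%, with a median of -0.037, and 21 were lower with normexp background correction. The background was also tilted: 58.5% of all probes were lower in T (median -0.020), and 53.9% of named genes taken with 1 probe each (median -0.009). No test was made of these counts or of writers against erasers, since the genes were chosen with earlier results of these data in view.

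The tilt was smaller without 1 array. C1 was the highest or lowest of the 10 arrays for 18 of 33 members (54.5%), the highest for 14 of them, against 38.5% of all probes. The median writer stood 0.19 above its own mean over the arrays on C1, the median eraser 0.066 and the median probe 0.090. Without C1, 20 of 33 members were lower in T, among them 9 of 14 writers and 8 of 15 erasers, and 49.5% of all probes. The median differences were then -0.005 for members, -0.019 for writers and about 0 for erasers. C1 also had the lowest 75th percentile of signal. Within slide 1, which holds C1, 21 of 33 members and 10 of 14 writers were lower in T, against 46.0% of all probes (median 0.013). Within slide 2, 18 of 33 members and 7 of 14 writers were lower, against 58.4% of all probes (median -0.027).

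**Figure D3:**
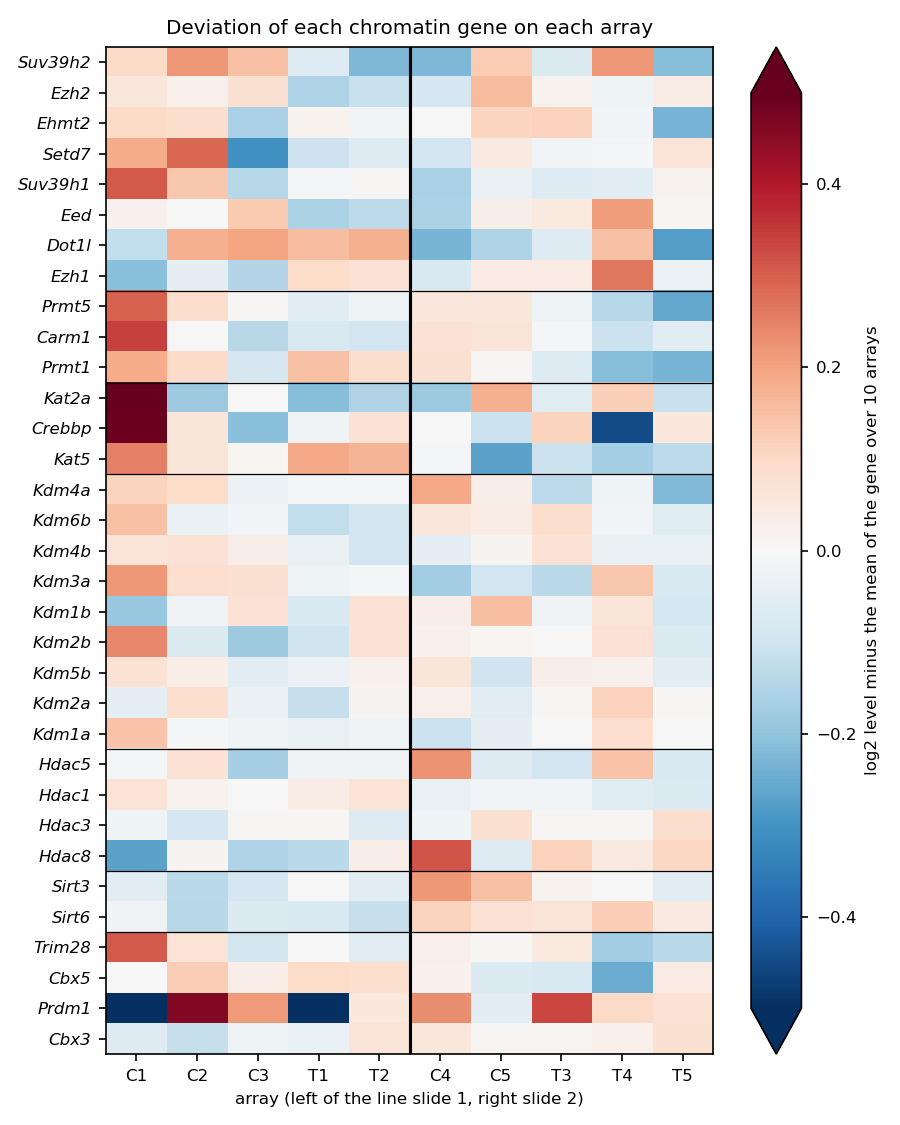
Level of each of 33 members (rows, ordered by role) on each of 10 arrays (columns, slide 1 left of the thick line and slide 2 right of it), as log2 level minus the mean of the gene over the arrays, with colours ending at 0.5 in either direction. The C1 column is red for most writers, the Kat5 row is red left of the line and blue right of it, and the Sirt6 row runs the other way.

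More probes differed between slides than between groups. With group in the model, 2143 probes differed between slides (9.79%, limma adjusted p under 0.05). So did 621 of 11561 named genes taken with 1 probe each, and 1 of 33 members. That member was Kat5, which stood at 3.37, 3.18, 3.13, 3.31 and 3.29 on the slide 1 arrays C1, C2, C3, T1 and T2. On the slide 2 arrays C4, C5, T3, T4 and T5 it stood at 3.11, 2.85, 3.01, 2.95 and 2.99, each below every value of slide 1. Slide 2 minus slide 1 was -0.28 ± 0.070 (limma adjusted p = 0.0327).

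The Kat5 call was near the threshold. It was lost without C1, C2, C5, T1, T2, T3, T4 or T5 (adjusted p from 0.0511 to 0.128), where the difference was still -0.24 to -0.30, and kept without C3 (0.0224) or C4 (0.0143). The second Kat5 probe was higher on slide 2, by 0.095 (adjusted p = 0.349). Next came Sirt6, at 0.47 to 0.59 on slide 1 and at 0.65 to 0.73 on slide 2, with a difference of 0.17 ± 0.050 (limma adjusted p = 0.0617). Slides held both groups, and with slide as a term 0 members passed the threshold for T minus C. There 25 of 33 were lower in T, though not all the same genes, as Kat5 turned to 0.041 and Sirt6 to -0.023, and 54.1% of all probes were lower.

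Members were steadier between arrays than most probes. The SD between arrays within groups had a median of 0.12 over members and 0.16 over all probes, which put the median member at percentile 31.2 of all probes. Of 33 members, 25 were below the median SD of all probes and 8 were below percentile 10. Erasers had a median percentile of 12.9, with demethylases at 8.8, and writers of 41.3. Hdac1 (SD 0.051), Kdm4b (0.054), Cbx3 (0.055) and Hdac3 (0.056) varied least, and Prdm1 (0.43), Crebbp (0.25) and Kat2a (0.25) most. Brighter probes varied less: over all tested probes the SD ran against the mean level (Spearman rho -0.55 across probes, which are not independent), and named genes had a median percentile of 40.8. The 72 other tested chromatin genes had a median percentile of 28.7, with 56 below the median SD. For the 28 members with several spots, single repeat spots on an array differed by a median SD of 0.076. The SD between arrays, a median of 0.12 for these members, is of values averaged over spots, so the measures are not alike.

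**Figure D4:**
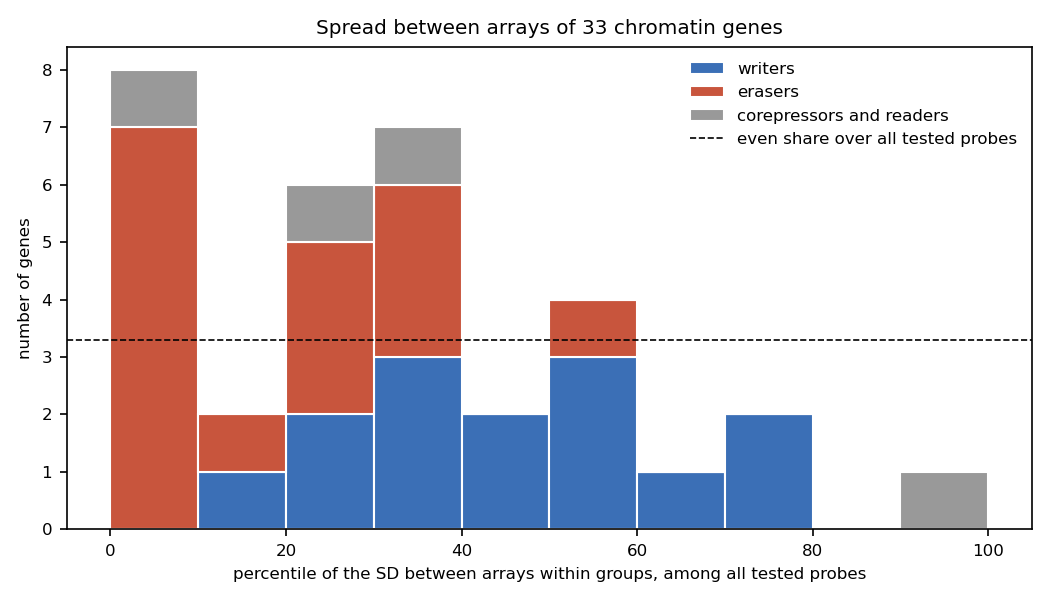
Number of members (vertical axis) by the percentile of their SD between arrays within groups among all tested probes (horizontal axis), stacked by writers, erasers, and corepressors and readers. The dashed line is an even share of the 33 members. Of the 8 members in the first bin 7 are erasers, and the single gene in the last bin is Prdm1.

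Partner genes were compared across the 10 arrays after the mean of each group was removed, for the 5 of 16 listed pairs in which both genes were tested. Ezh2 and Eed had a Pearson r = 0.73 (permutation p = 0.0173, adjusted over 5 pairs 0.0865) and Spearman rho = 0.77 (permutation p = 0.0125, adjusted 0.0625). The relation did not pass after adjustment. C4, T1 and T2 were low for both genes, and r was 0.42 without C4 and T1, so the relation rests largely on those arrays. It was 0.71 with slide means removed as well, and no correlation was computed over the 5 arrays of a single slide.

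**Figure D5:**
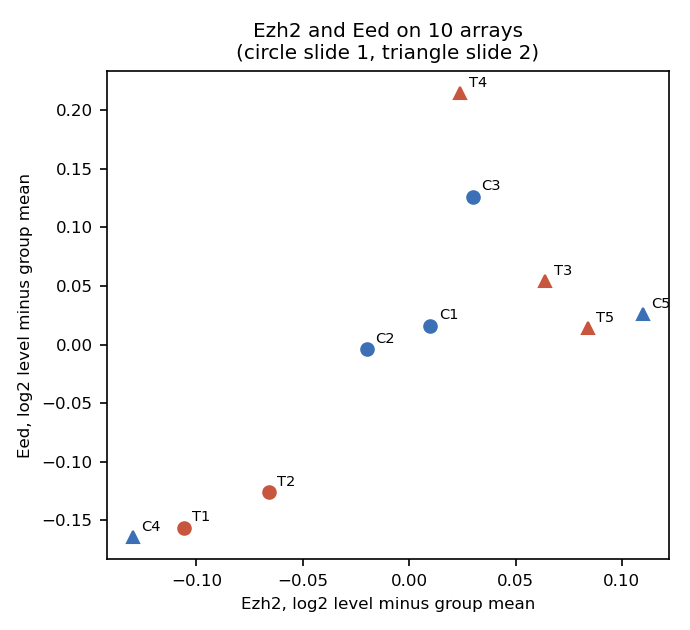
Ezh2 (horizontal axis) against Eed (vertical axis) on 10 arrays, each as log2 level minus the mean of its group, with circles for slide 1, triangles for slide 2 and array names beside the points. C4, T1 and T2 form the low corner for both genes.

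The other pairs had smaller or negative values. Kdm1a and Kdm1b, which both demethylate lysine 4, gave r = -0.51 (permutation p = 0.152, adjusted 0.38) and rho = -0.35 (permutation p = 0.337, adjusted 0.733), and r was 0.10 without C1 and C4. Suv39h1 and Suv39h2 gave r = 0.21 (permutation p = 0.554, adjusted 0.726) and rho = 0.13 (permutation p = 0.733), and r was -0.17 without C1 and C4. Ezh1 and Ezh2 gave r = 0.03 (permutation p = 0.933) and rho = -0.13 (permutation p = 0.728), and r was -0.69 without C5 and T4. Cbx3 and Cbx5 gave r = -0.20 (permutation p = 0.581, adjusted 0.726) and rho = -0.21 (permutation p = 0.555), and the sign turned to 0.25 with slide means removed.

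The wider chromatin machinery was examined through 118 further genes, of which 72 had a tested probe. In this list 43 had a lower and 29 a higher mean in T, with a median difference of -0.028. Of the 72, 0 passed the adjusted threshold (limma). Against 3.97% of all probes, 5.56% of the list had an unadjusted limma p under 0.05, which is 4 genes. These were Taf1, a subunit of the general factor TFIID (-0.26 ± 0.099), Phc3, a subunit of Polycomb complex 1 (-0.44 ± 0.17), Phf8, a demethylase of lysines 9 and 20 (-0.20 ± 0.087), and Pcgf3, also of Polycomb complex 1 (0.13 ± 0.061). The Phc3 probe was dim, with means of -6.12 in C and -6.55 in T, and its groups overlapped. Its repeat spots on an array differed by an SD of 0.545, larger than the difference between groups. The 20 tested polycomb subunits were split evenly, 10 lower and 10 higher, with a median of 0.005. Of 17 corepressor complex subunits 12 were lower, with a median of -0.033, and L3mbtl2 had the smallest p (-0.11 ± 0.062). Between slides, Mta2 (-0.42), Ash1l (-0.45) and Hdac10 (0.35) passed the threshold (limma adjusted p = 0.00251, 0.0244 and 0.0365). That is 3 of 72 genes, against 9.79% of all probes and 621 of 11561 named genes taken with 1 probe each.

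Cell type markers were read beside these values, as the sum over a list of the signal divided by the 75th percentile of the array. Such a sum mostly follows the brightest genes of its list. Among erythroid markers Hbb had mean log2 levels of 5.85 in C and 6.03 in T, and the next, Alas2, of 0.37 and 0.65. The sum of 11 germ cell markers was 5.74 to 6.29 on C arrays and 5.84 to 7.14 on T arrays, and 9 of 11 had a higher mean in T. The sum of 11 Sertoli cell markers was 69.07 to 79.65 on C and 61.74 to 75.90 on T, with 9 of 11 lower in T. Of the 4 tested erythroid markers 4 were higher in T, with sums of 44.19 to 74.39 on C and 52.61 to 80.70 on T. Sums of 7 Leydig cell markers (29.05 to 37.43 on C, 26.84 to 43.22 on T), 6 myoid (24.69 to 31.70 and 23.08 to 27.11) and 5 endothelial markers (2.42 to 3.06 and 2.78 to 3.17) overlapped between groups, with 4 of 7, 1 of 6 and 4 of 5 higher in T. So did 6 macrophage (3.46 to 3.99 and 3.52 to 3.99) and 6 skeletal muscle markers (0.28 to 0.46 and 0.28 to 0.48), with 3 of 6 and 4 of 6 higher. An unadjusted limma p under 0.05 was found for 3 of 11 germ cell, 2 of 5 endothelial, 1 of 4 erythroid and 1 of 6 skeletal muscle markers. It was found for 0 Sertoli, Leydig, myoid and macrophage markers, and for 3.97% of all probes. Pecam1, an endothelial marker chosen after its values were seen, was higher on every T array than on every C array (0.21 ± 0.082). That order was seen in 0.192% of all probes. Cdh5, of the same list, had a lower mean in T (-0.21 ± 0.15). No tested marker was at 0. Lhcgr and Tek had probes that were not tested, and Hba-a2 had no matched probe. The part of cell makeup in the differences of Prmt5, Ezh1 and Kdm4a was not tested.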

How the data were processed

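Per the labels' protocols, 100 ng of total RNA per sample was amplified and given a Cy3 label. Spot intensity in the deposited files was background-subtracted by Agilent Feature Extraction 10.7.3.1 per the file headers (10.7 in the submitters' processing notes) and not scaled between arrays. The authors' deposited table, used as an alternative, holds log2 values centred per probe (r = 0.9978 to 0.9987 with the scanner values). How it was scaled between arrays is unknown, and its column medians were 0.0288, 0.0001, -0.0166, 0.0202 and -0.0089 (C1 to C5) and 0.0032, 0.0037, -0.0026, -0.0169 and -0.0023 (T1 to T5).

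The log2 processed signal minus the 75th percentile of each array was used. Of 62976 spots per array, 4259 controls were left out, spots with an outlier flag in the deposited files (494 to 745 per array) were set missing, and spots of a probe were averaged. A probe was kept if well above background on at least 5 of 10 arrays (21892 of 30367). Arrays correlated at 0.9899 to 0.9966. Accessions without version were matched to RefSeq (GRCr8), which named 17998 probes. Tests of group and slide used limma 3.58.1 under R 4.3.3 (two-sided, Benjamini-Hochberg over all probes, threshold 0.05), checked on simulated data. Pairs were tested by permutation with 100000 resamples (scipy 1.17.1).

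The members and all lists were chosen with earlier results of these data known. A gene is represented by its probe with the highest mean. Values on every array are given for members past the threshold, without overlap, among the 2 smallest p of their role, or among the 3 largest SDs. Further chromatin genes named are among the 2 smallest p of their list, and Mta2, Ash1l and Hdac10 were chosen after their values were seen. Alternatives were the background correction, scaling, filter, flagged spots, the authors' values, slide, sire codes, variance model, array weights, choice of probe and leaving out each array. Normexp (offset 50) used the median spot signal, since the files used here give no mean signal.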

Additional observations from a re-analysis of the deposited data

Results flagged for a closer look

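In 66 groups of 5 arrays (33 genes, C and T), the highest or lowest array was checked for a gap from the others that is large against the range of the group, and 4 such arrays were found. Chance alone gives about 1 in 20 groups. Suv39h2 stood at -5.41 on C4, while the other C arrays ran from -5.09 to -4.97. Prmt5 stood at 0.47 on C1, with the other C arrays at 0.18 to 0.26. Crebbp stood at -4.32 on T4, against -3.89 to -3.76 on the other T arrays. Prdm1 stood at -6.51 on T1, against -5.81 to -5.53.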

How the results depend on the processing

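The count of probes differing between T and C at an adjusted p of 0.05 was 0 in all 24 alternatives, and 0 members passed in any of them. The number differing between slides was 2143 and ran from 1277 (without C5) to 2753 (without C3) when an array was left out, with 1334 without T1 and 1410 without T2. The Kat5 slide difference missed the threshold with normexp (-0.25, adjusted p = 0.0525), and quantile normalization called Kat5 and Sirt6. The median difference of members was -0.051 to -0.005 over the arrays left out (lowest without C3, highest without C1), and it was below 0 in all 25 alternatives. That of writers was -0.11 to -0.019 over the arrays left out. The correlation of Cbx3 with Cbx5 was 0.25 with slide means removed and -0.54 with quantile normalization. Of 824 alternative values of single members 13 moved by more than the spread between arrays, and 23 of 33 members had none. The members lower in T numbered 21 with normexp (56.2% of all probes), 22 with the median of the array (54.9%), 22 with the authors' values (54.1%) and 25 with quantile normalization (55.5%). Between arrays with a shared sire number (2, 4 and 6) the correlations of deviations were -0.51, 0.28 and 0.19. Slide means were not removed. The arrays of number 2 (C5 and T1) lay on different slides, and those of 4 (C2 and T2) and 6 (C4 and T3) on the same slide. These values therefore cannot decide whether sire numbers pair the arrays. With the sire number as a replicate block, T minus C rests only on the arrays of numbers 2, 4 and 6. C1, C3, T4 and T5 have numbers of their own and add nothing to it. In that smaller comparison 0 probes passed (697 unadjusted), and 0 members had an unadjusted limma p under 0.05. There 22 of 33 members were lower in T (46.3% of all probes), and Prmt5 differed by -0.096, the smallest size of its alternatives. The median was -0.037 for members, -0.032 for writers and -0.051 for erasers. With 5 arrays a group the median interval of a member was 0.18 wide on either side.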
